A study of Mus musculus with 31 samples.

Results

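The genes followed in mouse liver were 7: the 5 lysosomal sulfatases (Arsa, Arsb, Galns, Ids and Sgsh) and the sulfatase-modifying factors Sumf1 and Sumf2. They were taken as a fixed list of names, chosen with earlier results of these data known. Each was read from its brightest probe set, by the mean over the 31 arrays. All 7 were above the filter on dim genes, among 12889 genes tested of 18146 named on the array. The samples were the left liver lobes of female mice of 4 inbred strains (WSB/EiJ, SM/J, NZW/LacJ and MA/MyJ), aged 8 to 10 weeks when the study began. Animals of each strain were gavaged once daily for 7 days with sterile water (vehicle) or with 600 mg/kg PF-04287881, the candidate antibiotic under study, and livers were taken 24 hours after the final dose. Each of the 8 groups held 4 animals except treated WSB/EiJ, which held 3 after 1 animal died of a gavage error. The labels code MA/MyJ and NZW/LacJ as strains with vacuolated Kupffer cells, the resident macrophages of the liver, and NZW/LacJ as the strain with single cell necrosis. The coding belongs to a strain, so treated and vehicle animals of one strain carry the same code.

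Values are log2 units of array signal, and a drug effect is the mean of the treated animals minus the mean of the vehicle animals of that strain, ± 1 standard error of the fit. The test was limma's, and passing means an adjusted p (Benjamini-Hochberg, over all 12889 genes) under 0.05. The array labelled WSB/EiJ treated animal 3 went against its label. On 73 probe sets private to WSB/EiJ, scaled so that the other strains average 0 and WSB/EiJ 1, it lay at -0.00285, against 0.917 to 1.04 for the remaining arrays of that strain. On the NZW/LacJ scale it lay at 1.01, inside the 0.879 to 1.02 of the NZW/LacJ arrays. On a scale of the NZW/LacJ drug response, with vehicle at 0 and treated at 1, it lay at 0.0453. Counts of members called and the effects it moves are given with and without it, and "the library in doubt" means that array. The 8 hepatocyte markers averaged between 14.1 and 14.4 on all 31 arrays, so the tissue matched its label. These are samples of whole liver, in which fewer cells of a type and less RNA per cell cannot be told apart.

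Sulfatases remove sulfate groups from glycosaminoglycans and sulfolipids inside lysosomes, and each acts on its own substrate. None of them is active until a cysteine of the new protein has been turned into formylglycine in the endoplasmic reticulum. Sumf1 encodes the enzyme that makes this change, and its loss abolishes sulfatase activity as a group, the disease called multiple sulfatase deficiency. Sumf2 encodes a related protein that lacks that activity and can bind Sumf1. Many lysosomal genes carry the sequence CACGTG close to their start, the core of the element bound by Tfeb and related factors.

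RefSeq promoter windows of the GRCm38.p6 build, 250 bases before to 50 after the start of the gene, were held for 6 of the 7 genes. They were searched for CACGTG, which reads the same on both strands, and for the longer palindrome TCACGTGA, which contains it. CACGTG stood in the windows of Arsa, Sgsh and Sumf1, and in 2349 of all 32851 windows (7.15%). TCACGTGA stood in the window of Sumf1 alone among the 6, and in 320 of all windows (0.974%). Neither string stood in the windows of Arsb, Ids and Sumf2. The 120 bases before the start of Arsa (chr15:89477425-89477544), Sgsh (chr11:119355511-119355630) and Sumf1 (chr6:108185584-108185703), each on the minus strand, are shown because they are the members with the string, which is in capitals.
Arsa: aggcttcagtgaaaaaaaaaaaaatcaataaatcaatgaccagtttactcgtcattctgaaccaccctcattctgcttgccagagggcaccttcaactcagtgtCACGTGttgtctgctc
Sgsh: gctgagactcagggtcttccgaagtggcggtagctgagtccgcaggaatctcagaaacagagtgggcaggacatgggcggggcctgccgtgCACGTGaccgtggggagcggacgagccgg
Sumf1: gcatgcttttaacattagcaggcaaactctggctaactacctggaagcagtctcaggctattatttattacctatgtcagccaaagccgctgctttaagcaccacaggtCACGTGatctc
The string began 16, 29 and 11 bases before the start of Arsa, Sgsh and Sumf1, in that order. A match is a description of these letters and not evidence of binding.

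PF-04287881 raised Arsa, Arsb, Galns and Sumf1 and lowered Ids when its effect was averaged over the 4 strains. Arsa rose most, by 0.80 ± 0.09 (1.74-fold), followed by Galns at 0.76 ± 0.06 (1.69-fold), Arsb at 0.44 ± 0.12 (1.35-fold) and Sumf1 at 0.23 ± 0.06 (1.18-fold). Ids fell by 0.19 ± 0.05. These 5 genes passed, with adjusted p-values of 5.04e-07, 5.15e-10, 0.0124, 0.00365 and 0.0109. Sgsh, with a difference of 0.08 ± 0.04 (adjusted p = 0.189), and Sumf2, with -0.24 ± 0.09 (adjusted p = 0.0701), did not pass. The 4 members that rose stand beside 13.3% of all tested genes called higher, and the 1 that fell beside 8.92% called lower. Without the library in doubt the same 4 members rose, beside 18.4% of genes, and Ids and Sumf2 fell, beside 14.2%. Sumf2 then differed by -0.36 ± 0.05 (adjusted p = 4.64e-06). The median effect was 0.23 over the members and 0.00 over all tested genes. Over the 3 strains other than WSB/EiJ the mean effect passed for Arsa, Arsb and Galns, 3 of 7 beside 23.1%. Leaving out the library in doubt, which there changes the estimated spread and not the means, brought this to 6 of 7, all but Ids, beside 28.5%.

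**Figure D1:**
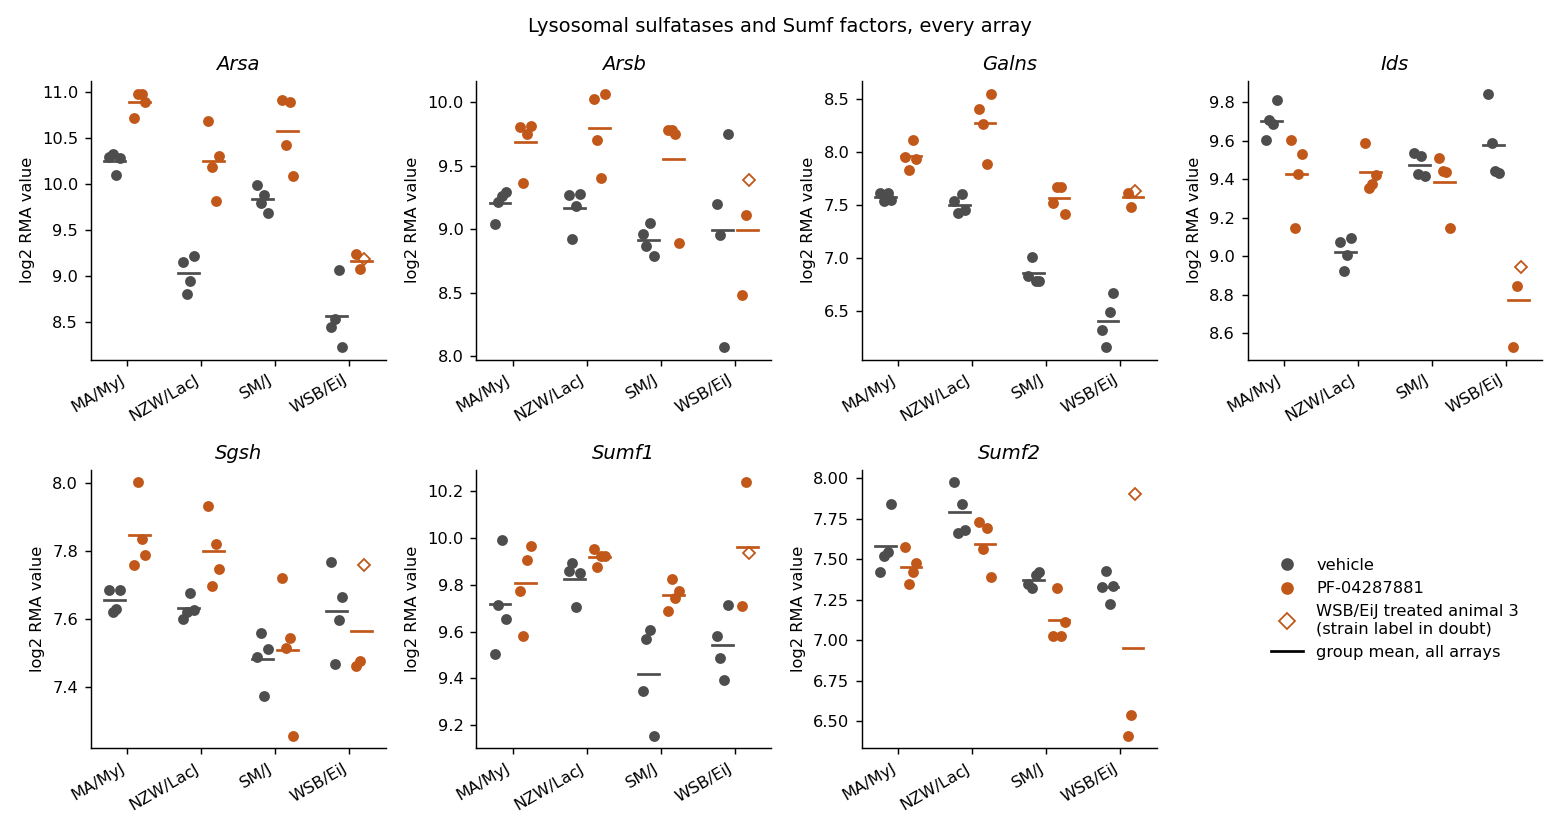
Log2 array signal of each of the 7 genes on every array, with vehicle and PF-04287881 animals of the 4 strains side by side and a line at each group mean; the array labelled WSB/EiJ treated animal 3 has its own symbol. Treated Arsa and Galns values lie above every vehicle value of their strain in all 4 strains, while Ids lies higher after treatment in NZW/LacJ and lower in WSB/EiJ.

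Arsa encodes arylsulfatase A, which removes sulfate from sulfatide, a sulfolipid of cell membranes. In MA/MyJ the vehicle animals read 10.30, 10.33, 10.10 and 10.29 and the treated animals 10.72, 10.99, 10.99 and 10.89. In NZW/LacJ they read 9.15, 8.81, 8.94 and 9.22 under vehicle and 10.69, 10.19, 9.82 and 10.31 after the drug. No treated value of either strain reached down to its vehicle values. In SM/J the vehicle values were 9.99, 9.80, 9.88 and 9.68 and the treated values 10.92, 10.42, 10.90 and 10.09. In WSB/EiJ they were 8.44, 8.53, 9.07 and 8.23 under vehicle and 9.24, 9.08 and 9.18 after the drug, the last of these from the library in doubt. The groups were separate there too, but vehicle animal 3 of WSB/EiJ lay just below the lowest treated animal. Arsa rose in each strain, most in NZW/LacJ, by 1.22 ± 0.17 (2.33-fold, adjusted p = 1.77e-05). The rise was 0.74 ± 0.17 in SM/J (adjusted p = 0.0182), 0.64 ± 0.17 in MA/MyJ (0.0334) and 0.60 ± 0.19 in WSB/EiJ (0.0252; 0.59 ± 0.21 and 0.0350 without the library in doubt). The differences among its 4 effects did not pass (F = 2.66, adjusted p = 0.184). The call in MA/MyJ was lost when any 1 of 7 MA/MyJ arrays was left out (all vehicle animals, treated animals 2, 3 and 4). That in SM/J was lost without vehicle animal 2 or 4 or treated animal 1 or 3, and that in WSB/EiJ without vehicle animal 1 or 4 or treated animal 1.

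Galns encodes the sulfatase that acts on keratan sulfate and chondroitin 6-sulfate. Its vehicle values in MA/MyJ were 7.61, 7.53, 7.61 and 7.55 and its treated values 7.95, 7.83, 8.11 and 7.93. In NZW/LacJ they were 7.54, 7.42, 7.60 and 7.45 against 8.40, 8.26, 7.89 and 8.55. Both strains were separated, with the treated NZW/LacJ animals spread more widely than any vehicle group of these strains. In SM/J the values were 6.83, 7.01, 6.79 and 6.78 under vehicle and 7.52, 7.67, 7.66 and 7.41 after the drug. In WSB/EiJ they were 6.32, 6.16, 6.49 and 6.67 against 7.61, 7.48 and 7.63, the last from the library in doubt. The lowest 2 of those WSB/EiJ vehicle values lay below the 6.49 of the filter. Galns rose most in WSB/EiJ, by 1.16 ± 0.12 (2.24-fold, adjusted p = 6.02e-07), or by 1.14 ± 0.13 without the library in doubt. It rose by 0.77 ± 0.11 in NZW/LacJ (1.60e-05), by 0.71 ± 0.11 in SM/J (0.000711) and by 0.38 ± 0.11 in MA/MyJ (0.0423). The MA/MyJ call was lost when any 1 of 11 arrays was left out (each of the 8 of MA/MyJ, NZW/LacJ vehicle animals 1 and 4 and SM/J vehicle animal 3).

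Arsb encodes arylsulfatase B, which acts on dermatan and chondroitin 4-sulfate. In MA/MyJ it read 9.04, 9.22, 9.26 and 9.30 under vehicle and 9.81, 9.37, 9.75 and 9.81 after treatment, and in NZW/LacJ 9.27, 8.92, 9.19 and 9.27 against 10.02, 9.70, 9.41 and 10.07. All treated values lay above the vehicle values in these strains. In SM/J it read 8.96, 8.86, 9.05 and 8.79 under vehicle and 9.78, 9.78, 9.75 and 8.89 after treatment, so that treated animal 4 lay among the vehicle animals. In WSB/EiJ it read 9.20, 8.96, 8.07 and 9.75 against 8.48, 9.11 and 9.38, so that every treated value lay inside the vehicle range, the widest of any member. Arsb passed in no single strain: the effects were 0.64 ± 0.24 in NZW/LacJ (adjusted p = 0.0639), 0.63 ± 0.24 in SM/J (0.198), 0.48 ± 0.24 in MA/MyJ (0.299) and -0.00 ± 0.26 in WSB/EiJ (0.995; -0.20 ± 0.29 without the library in doubt). When that library was left out the NZW/LacJ effect, 0.64 in both fits, passed at 0.0488, and the same call was gained when any 1 of 5 other arrays was left out. The average rise of Arsb held in each of the 31 fits that left out 1 array.

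Ids and Sgsh encode enzymes of heparan sulfate breakdown, iduronate 2-sulfatase (which also acts on dermatan sulfate) and sulfamidase. Ids read 9.07, 8.92, 9.01 and 9.10 in vehicle NZW/LacJ and 9.59, 9.35, 9.38 and 9.42 after treatment. In WSB/EiJ it read 9.84, 9.59, 9.44 and 9.43 under vehicle and 8.53, 8.85 and 8.94 after treatment, the last from the library in doubt. The groups were separate in both strains and in opposite order. In MA/MyJ the values were 9.60, 9.71, 9.68 and 9.81 against 9.61, 9.15, 9.43 and 9.53, and in SM/J 9.53, 9.43, 9.52 and 9.42 against 9.51, 9.44, 9.44 and 9.15, with overlap in both. Ids rose by 0.41 ± 0.10 in NZW/LacJ (adjusted p = 0.00526) and fell by 0.80 ± 0.11 in WSB/EiJ (2.21e-05), or by 0.89 ± 0.12 without the library in doubt. The effects of -0.27 ± 0.10 in MA/MyJ (0.135) and -0.09 ± 0.10 in SM/J (0.767) did not pass. The average fall of Ids therefore rested on WSB/EiJ: over the other 3 strains the mean effect was 0.02 ± 0.06 (adjusted p = 0.884).

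Sgsh read between 7.62 and 7.69 in vehicle MA/MyJ and between 7.76 and 8.00 after treatment, and between 7.60 and 7.68 against 7.70 and 7.93 in NZW/LacJ. Those groups were separate, but the effects of 0.19 ± 0.09 and 0.17 ± 0.09 did not pass (adjusted p = 0.221 and 0.171). In SM/J the range was 7.37 to 7.56 under vehicle and 7.26 to 7.72 after treatment, and in WSB/EiJ 7.47 to 7.77 against 7.46 to 7.76, with overlap in both. The effects there were 0.03 ± 0.09 and -0.06 ± 0.09, with adjusted p-values of 0.938 and 0.709.

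Sumf1, the activator, read 9.35, 9.57, 9.61 and 9.16 in vehicle SM/J and 9.69, 9.82, 9.74 and 9.77 after treatment, with no overlap. In WSB/EiJ it read 9.58, 9.49, 9.39 and 9.71 against 9.71, 10.24 and 9.93, the highest vehicle and lowest treated value being all but equal. The WSB/EiJ rise of 0.42 ± 0.12 passed (adjusted p = 0.0157; 0.43 ± 0.14 without the library in doubt) and was lost without treated animal 2. The SM/J effect of 0.34 ± 0.11 did not pass (0.113). In MA/MyJ the vehicle animals ran from 9.51 to 9.99 and the treated from 9.58 to 9.96, and in NZW/LacJ from 9.70 to 9.89 against 9.88 to 9.95. Both effects were 0.09 ± 0.11, with adjusted p-values of 0.740 and 0.613.

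Sumf2, the related factor, read 7.33, 7.43, 7.22 and 7.33 in vehicle WSB/EiJ and 6.41, 6.54 and 7.90 after treatment. The value of 7.90 came from the library in doubt, and the other treated animals lay below every vehicle animal. The effect in WSB/EiJ was -0.38 ± 0.20 with that library (adjusted p = 0.193) and -0.85 ± 0.11 without it (2.63e-06). In SM/J the vehicle values of 7.35, 7.32, 7.40 and 7.42 lay just above the treated values of 7.03, 7.32, 7.03 and 7.12. The SM/J effect of -0.25 ± 0.18 did not pass (0.591; 0.122 without the library in doubt). In MA/MyJ vehicle animals ran from 7.42 to 7.84 and treated from 7.35 to 7.58, and in NZW/LacJ from 7.66 to 7.97 against 7.39 to 7.73. The effects there were -0.13 ± 0.18 (0.780) and -0.19 ± 0.18 (0.502).

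Counted by strain, the members called were Arsa and Galns in MA/MyJ, 2 of 7 beside 4.14% of all genes, and the same pair in SM/J, 2 of 7 beside 2.59%. The pair was the same without the library in doubt, beside 7.30% and 4.66%. In NZW/LacJ they were Arsa, Galns and Ids, 3 of 7 beside 21.5%, or, without the library in doubt, 4 of 7 with Arsb, beside 26.7%. In WSB/EiJ they were Arsa, Galns and Sumf1, which rose, and Ids, which fell, 4 of 7 beside 19.3%. Sumf2 joined those that fell once the library in doubt was left out, 5 of 7 beside 32.4%. Arsa and Galns were thus the members called in each of the 4 strains, though their MA/MyJ calls were lost in 7 and 11 of 31 fits that left out 1 array. The share of all genes called in every strain was not counted. The library in doubt was within the NZW/LacJ vehicle range for 3 members (Arsa, Ids and Sumf2) and within the range of the other treated WSB/EiJ animals for 2 (Arsa and Sumf1).

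**Figure D2:**
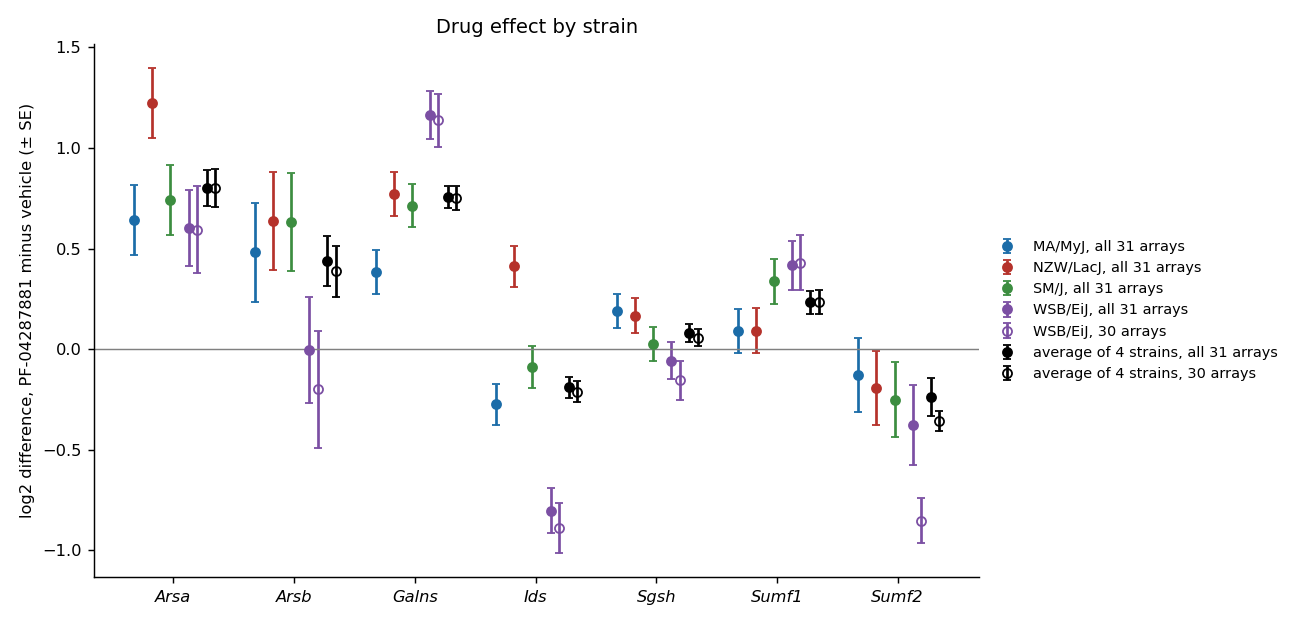
Drug effect of each gene in each strain and on average, in log2 units ± 1 standard error, with all 31 arrays (filled) and, for WSB/EiJ and the average, without the array labelled WSB/EiJ treated animal 3 (open). Arsa lies between 0.60 and 1.22 and Galns between 0.38 and 1.16, Ids runs from -0.80 in WSB/EiJ to 0.41 in NZW/LacJ, and Sumf2 in WSB/EiJ moves from -0.38 to -0.85 when the array is left out.

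The drug effect differed between strains for Galns (F = 8.01, adjusted p = 0.00697) and Ids (F = 21.7, adjusted p = 3.62e-05), 2 of 7 members beside 19.4% of all genes. Sumf2 also passed without the library in doubt (F = 9.75, adjusted p = 0.00161), 3 of 7 beside 32.4%, and the F values of Galns and Ids were 6.49 and 23.0. For Galns the strains with the lower vehicle levels had treated means of 7.57 (SM/J) and 7.57 (WSB/EiJ), beside a vehicle mean of 7.57 in MA/MyJ. The WSB/EiJ mean includes the library in doubt at 7.63, and the other treated animals read 7.61 and 7.48. For Ids the treated mean of WSB/EiJ was 8.77, and those of the other 3 strains lay between 9.38 and 9.44. The library in doubt read 8.94 for Ids, and the other treated WSB/EiJ animals 8.53 and 8.85.

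A contrast set the mean effect of MA/MyJ and NZW/LacJ, the strains coded for vacuolated Kupffer cells, against that of SM/J and WSB/EiJ. It asks whether a response follows that microscopic finding, with 2 strains on each side, so that the coding cannot be told apart from any other difference between these pairs of strains. The contrast passed for Galns, at -0.36 ± 0.11 (adjusted p = 0.0245), and for Ids, at 0.51 ± 0.11 (0.00136), 2 of 7 members beside 17.0%. Neither gene split by the coding in every strain. Galns rose by 0.77 in coded NZW/LacJ, more than the 0.71 of uncoded SM/J, and its contrast came from the 0.38 of MA/MyJ and the 1.16 of WSB/EiJ. Without the library in doubt the values were -0.35 ± 0.12 and 0.56 ± 0.11, and Sgsh (0.24 ± 0.08, adjusted p = 0.0333) and Sumf2 (0.39 ± 0.10, 0.00416) passed too, 4 of 7 beside 26.3%. For Ids the coded strains differed in sign, with -0.27 in MA/MyJ and 0.41 in NZW/LacJ. The contrasts of Arsa (0.26 ± 0.18, adjusted p = 0.339), Arsb (0.24 ± 0.25, 0.547) and Sumf1 (-0.29 ± 0.11, 0.0841) did not pass.

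Vehicle levels, which answer how the strains differed before any drug, varied for Arsa, Galns, Ids and Sumf1 (4 of 7 in the F test, beside 56.5% of all genes). Leaving out the library in doubt, which is labelled treated and so enters no vehicle mean, changed the shared spread, and Sumf2 passed as well (F = 10.7, adjusted p = 0.000379), 5 of 7 beside 63.0%. Arsa was highest in MA/MyJ at 10.3 ± 0.10 (SD, n = 4), then SM/J at 9.84 ± 0.13, NZW/LacJ at 9.03 ± 0.19 and WSB/EiJ at 8.57 ± 0.36. MA/MyJ and SM/J did not pass against each other (difference 0.42 ± 0.17, adjusted p = 0.0993). The steps from SM/J to NZW/LacJ (0.81 ± 0.17, adjusted p = 0.00129) and from NZW/LacJ to WSB/EiJ (0.46 ± 0.17, 0.0375) did, the second being lost in 6 of 31 fits that left out 1 array and when arrays were centred on their medians (0.42, adjusted p = 0.0635).

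Galns was highest in MA/MyJ (7.57 ± 0.04) and NZW/LacJ (7.50 ± 0.08), which differed by 0.07 (adjusted p = 0.675). It was lower in SM/J (6.85 ± 0.11) and lowest in WSB/EiJ (6.41 ± 0.22), and the steps from NZW/LacJ to SM/J (0.65 ± 0.11, adjusted p = 8.36e-05) and from SM/J to WSB/EiJ (0.44 ± 0.11, 0.00269) passed. Ids was highest in MA/MyJ (9.70 ± 0.09), followed by WSB/EiJ (9.58 ± 0.19) and SM/J (9.47 ± 0.06), whose neighbouring differences did not pass (adjusted p = 0.393 and 0.475). NZW/LacJ was lowest at 9.02 ± 0.08, and its step below SM/J of 0.45 ± 0.10 passed (0.00247). The low NZW/LacJ level was not read by the second bright probe set of Ids, whose vehicle means were 8.48 ± 0.09 in NZW/LacJ, 8.45 ± 0.15 in WSB/EiJ, 8.42 ± 0.09 in SM/J and 8.40 ± 0.15 in MA/MyJ. With the mean of all its probe sets Ids no longer passed the F test of vehicle levels (F = 2.56, adjusted p = 0.115).

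Sumf1 ran from 9.83 ± 0.08 in NZW/LacJ through MA/MyJ (9.72 ± 0.20) and WSB/EiJ (9.54 ± 0.14) to 9.42 ± 0.21 in SM/J. No difference between neighbours in that order passed, while NZW/LacJ lay above SM/J by 0.41 ± 0.11 (adjusted p = 0.00941) and above WSB/EiJ by 0.28 ± 0.11 (0.0454, lost in 13 of 31 fits and, at 0.103, with arrays centred on their medians). Sumf2 ran from 7.79 ± 0.15 in NZW/LacJ through MA/MyJ (7.58 ± 0.18) and SM/J (7.37 ± 0.05) to 7.33 ± 0.08 in WSB/EiJ. Its ends differed by 0.46 ± 0.18 at an adjusted p of 0.04996, a call lost in 27 of 31 fits and, at 0.0768, with arrays centred on their medians. Without the library in doubt the same difference had a standard error of 0.09 and an adjusted p of 0.000234. NZW/LacJ minus SM/J (0.42 ± 0.09, 0.00128) and MA/MyJ minus WSB/EiJ (0.26 ± 0.09, 0.0327) then passed as well. The strain means of Arsb (8.92 to 9.20) and Sgsh (7.48 to 7.65) did not pass the F test (adjusted p = 0.647 and 0.25). The second bright probe set of Arsb read otherwise, with vehicle means of 7.38 ± 0.14 in NZW/LacJ, 6.81 ± 0.06 in SM/J, 6.74 ± 0.63 in WSB/EiJ and 6.53 ± 0.18 in MA/MyJ. On it NZW/LacJ lay above MA/MyJ by 0.85 ± 0.20 (MA/MyJ minus NZW/LacJ, -0.85), a difference that the probe set used put at 0.04.

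Over the 6 pairs of strains, the members called under vehicle were Arsa and Ids between MA/MyJ and NZW/LacJ (2 of 7, beside 24.2%) and Galns between MA/MyJ and SM/J (1 of 7, beside 16.9%). They were Arsa and Galns between MA/MyJ and WSB/EiJ (2 of 7, beside 28.1%) and the same genes between SM/J and WSB/EiJ (2 of 7, beside 32.9%). Between NZW/LacJ and SM/J they were Arsa, Galns, Ids and Sumf1 (4 of 7, beside 20.9%). Between NZW/LacJ and WSB/EiJ Sumf2 joined these (5 of 7, beside 38.4%). Without the library in doubt Sumf2 was also called between NZW/LacJ and SM/J (5 of 7, beside 26.2%) and between MA/MyJ and WSB/EiJ (3 of 7, beside 33.8%). The members called in the other 4 pairs were as with all arrays. These shares are near the background in several pairs. On the probe sets used, Arsb and Sgsh were called in none.

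The 7 genes had 18 probe sets. Arsb, Ids, Sumf1 and Sumf2 each had a second one above the filter on at least 20 arrays, and the 7 remaining ones were above it on at most 15. For Sumf1 the second probe set had effects of the same sign in every strain, 0.50 ± 0.14 in WSB/EiJ (0.54 without the library in doubt), 0.36 ± 0.13 in SM/J, 0.21 ± 0.13 in MA/MyJ and 0.14 ± 0.13 in NZW/LacJ. For Ids the probe sets disagreed. The second probe set read 8.60, 8.46, 8.49 and 8.39 in vehicle NZW/LacJ and 8.21, 8.51, 8.39 and 8.32 after treatment, an effect of -0.13 ± 0.08. In WSB/EiJ it read 8.47, 8.50, 8.24 and 8.59 against 8.30, 8.29 and 8.33, an effect of -0.15 ± 0.09. The opposite changes of Ids in these strains were thus read by 1 probe set and not by the other. For Arsb the second probe set had effects of 0.69 ± 0.20 in SM/J, 0.17 ± 0.20 in NZW/LacJ, 0.06 ± 0.20 in MA/MyJ and 0.25 ± 0.21 in WSB/EiJ, so the SM/J difference alone was of like size on both, and there treated animal 4 was again the lowest of the treated at 7.16. For Sumf2 the second probe set had effects of -0.18 ± 0.13 in NZW/LacJ, -0.10 ± 0.13 in MA/MyJ and -0.13 ± 0.13 in SM/J. In WSB/EiJ it had 0.04 ± 0.14, or -0.17 without the library in doubt, against -0.85 on the first. Arsa rested on 1 probe set, and Galns and Sgsh each on the one that was above the filter.

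**Figure D3:**
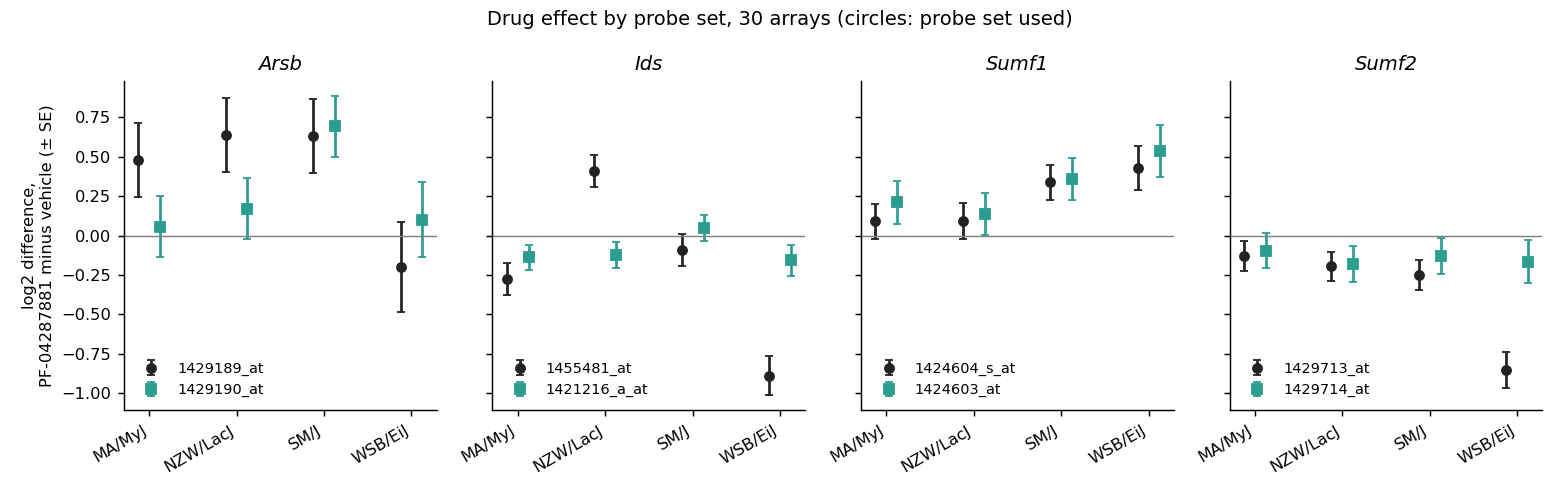
Drug effect by strain for the 4 genes with a second bright probe set (squares) beside the probe set used here (circles), in log2 units ± 1 standard error, over the 30 arrays without the one labelled WSB/EiJ treated animal 3. The probe sets of Sumf1 lie close together in each strain, while the second one of Ids stays between -0.16 and 0.05 where the first runs from -0.89 to 0.41.

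The enzymes that act beside these sulfatases were compared from lists of other genes. Of 8 other sulfatases, 4 were tested (Arsg, Arsk, Arsi and Sulf2) and 0 passed on average in limma (1 at an unadjusted p under 0.05), with values of 0.28 ± 0.15 for Arsg (adjusted p = 0.185) and 0.22 ± 0.08 for Arsk (0.0658). Arsk passed without the library in doubt (0.25, adjusted p = 0.0240). A further list was drawn up around the lysosomal breakdown of glycosaminoglycans and sulfatide, and holds genes outside it such as Manba. Of its 13 tested enzymes and cofactors, 8 rose and 0 fell on average, with a median effect of 0.35. Of all tested genes, 13.3% rose and 8.92% fell, with a median of 0.00. Hexa, a subunit of beta-hexosaminidase, rose by 0.85 ± 0.08. Naglu, which acts on heparan sulfate, rose by 0.66 ± 0.08, Ctsa, a protective carboxypeptidase, by 0.56 ± 0.05, and Manba, beta-mannosidase, by 0.49 ± 0.13. The value of Manba was 0.31 without the library in doubt. Of 10 genes for mannose 6-phosphate sorting and Sumf1 retention, Gnptab (0.31 ± 0.09), Sort1 (0.27 ± 0.05) and Gnptg (0.16 ± 0.06) rose and Mcfd2 (-0.12 ± 0.04) fell, 3 and 1 of 10 beside the same background, with a median of 0.03. Gnptab and Gnptg belong to the enzyme that tags lysosomal proteins with mannose 6-phosphate, and Sort1 encodes a sorting receptor. The call of Gnptg was lost without the library in doubt (0.12, adjusted p = 0.0800).

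**Figure D4:**
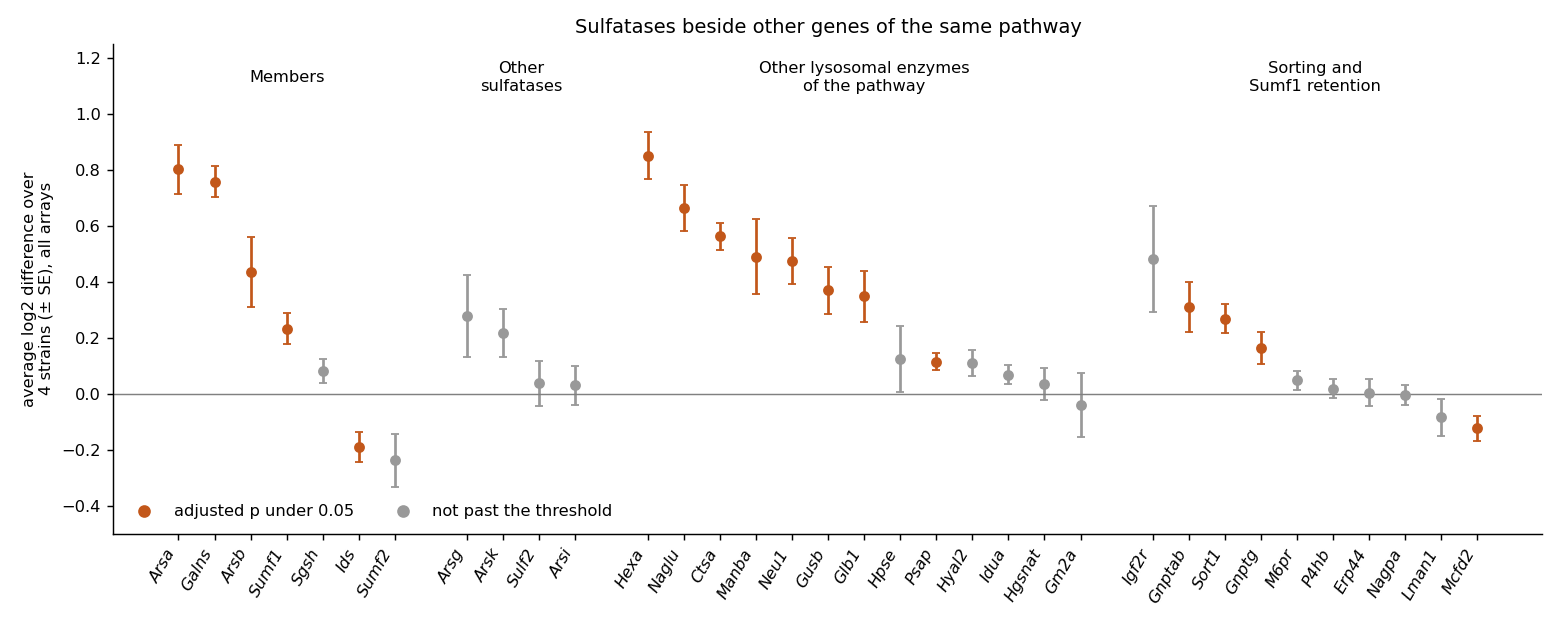
Average drug effect, in log2 units ± 1 standard error with all arrays, of the 7 genes and of the tested genes of 3 other lists, with genes that passed in orange and the others in grey. Arsa at 0.80, Galns at 0.76 and Hexa at 0.85 lie at the upper end, and Ids at -0.19 and Mcfd2 at -0.12 are the genes that passed below 0.

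Macrophage markers were also higher after the drug. Of 15 markers of Kupffer cells and macrophages, 14 rose on average and 0 fell (median effect 0.94). Of all tested genes 13.3% rose and 8.92% fell. Marco was the exception. By strain, 12 of these markers rose in MA/MyJ, 9 in WSB/EiJ, 7 in NZW/LacJ and 2 in SM/J. The shares of all genes called higher in those strains were 3.17%, 6.91%, 15.1% and 1.60%. Without the library in doubt the marker counts were 13, 10, 10 and 2, beside 5.21%, 13.8%, 18.3% and 2.66%. In WSB/EiJ the mean level of the markers ran from 7.70 to 8.27 under vehicle and from 9.11 to 9.22 after treatment. In MA/MyJ it ran from 8.41 to 8.69 against 9.57 to 10.7. In NZW/LacJ it ran from 8.82 to 9.31 against 9.10 to 10.9, and in SM/J from 8.77 to 9.18 against 9.07 to 9.76, with overlap in both. Treated NZW/LacJ animal 3 had the lowest marker mean of its group, 9.10, and the lowest Arsa, Arsb and Galns. Treated MA/MyJ animal 3 had the highest marker mean of its group, 10.7, and the highest Arsa and Galns. Treated MA/MyJ animal 1 had the lowest, 9.57, and the lowest Arsa and Sgsh. Arsb, Galns, Ids, Sumf1 and Sumf2 were lowest in treated MA/MyJ animal 2. In SM/J the order was otherwise: treated animal 4 had the highest marker mean, 9.76, and the lowest Arsa, Arsb, Galns, Ids and Sgsh. Of 8 sinusoidal endothelial markers 5 fell on average and 0 rose. No marker of the 8 for hepatocytes, 6 for stellate cells or 3 tested for cholangiocytes passed on average in limma (1, 2 and 0 of them at an unadjusted p under 0.05). Without the library in doubt 1 endothelial and 1 hepatocyte marker rose on average. In single strains 1 hepatocyte marker rose in MA/MyJ and 1 stellate marker in WSB/EiJ. In MA/MyJ, NZW/LacJ and WSB/EiJ 1 endothelial marker rose, and 1 fell in NZW/LacJ and in WSB/EiJ. Whether these markers had a part in the changes of the sulfatases was not tested.

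The genes most like each member were found by Pearson's r of log2 values, each centred on the mean of its strain, over the 30 arrays without the library in doubt. The arrays share drug and strain groups, so r is a description. Arsa was most like Abcb1b (0.925), a drug efflux transporter, and Plin3 (0.924), a lipid droplet coat protein. Galns was most like Vat1 (0.921) and Anxa5 (0.913), a phospholipid-binding annexin, and Arsb most like Rsu1 (0.930) and Galk2 (0.920). Abcb1b rose by 1.20 ± 0.15 and Anxa5 by 1.73 ± 0.12 on average. Ids was most like Impa1 (0.885) and Dguok (0.884), Sgsh like Tpm1 (0.827) and Acaca (0.820), Sumf1 like Bnip2 (0.777) and Wdr6 (0.751), and Sumf2 like Elp4 (0.924) and Asnsd1 (0.895).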

How the data were processed

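Liver RNA from 31 animals was measured on Affymetrix arrays with 1 colour. Deposited values are in log2 units per probe set, made by the authors with Affymetrix Power Tools and RMA per the submitters' processing notes. Not given in the sources used here: tool versions, genome build, scan dates. Of 44721 probe sets, 34717 had 1 symbol, 872 several and 9132 none (60 controls among them). Of those with 1 symbol, 34514 were matched by Entrez number to the GRCm38.p6 annotation, for names alone. Each gene was read from its brightest probe set, by the mean over the 31 arrays, and tested where above 6.49, the median of all values, on at least 3 arrays.

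The model, in limma 3.58.1 (R 4.3.3, data.table version 1.17.8, figures by matplotlib 3.10.9), had 1 mean per group over the 31 arrays. The eBayes step used 23 residual and 3.17 prior degrees of freedom, tests were two-sided, and p-values were adjusted by Benjamini-Hochberg over 12889 genes. The fit was tested on simulated data. The comparisons within a strain share their vehicle animals with the vehicle comparisons. Array medians lay between 6.43 and 6.54, and the number of arrays limits the precision. All 7 members are named, with up to 4 genes of each list by average effect among those past the threshold (where there were none, the 2 largest, as values), and the 2 genes most like each member, leaving out Gm, Rik, LOC, BC and AI names. Marco is named because it was the one marker of its list that did not pass. The members and the lists were chosen with earlier results of these data known. The p-values measure the spread of these animals within these strains. Alternatives were another filter, probe-set rule, centring, moderation, weights, a replicate block, fewer groups and each array left out.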

Additional observations from a re-analysis of the deposited data

Results flagged for a closer look

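Arsb of treated MA/MyJ animal 2 stood apart from its group at 9.37, against 9.75 to 9.81 in the other treated MA/MyJ animals. Arsb of treated SM/J animal 4 stood apart at 8.89, against 9.75 to 9.78 in the other treated SM/J animals, and lay within the vehicle range. These were 2 of 49 sets of 4 animals examined over the 7 genes, and chance sets apart about 1 in 20. The 3 treated WSB/EiJ animals were too few for this test.

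The drug effect of Galns differed among the 4 strains (F = 8.01) and that of Ids more so (F = 21.7). Between the strains coded for vacuolated Kupffer cells and the others, the effect of Galns differed by -0.36 and that of Ids by 0.51.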

How the results depend on the processing

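The average calls of Arsa, Arsb, Galns, Ids and Sumf1 held in all 31 fits that left out 1 array. Those fits gave 0 to 2 members called in MA/MyJ, 1 to 2 in SM/J and 2 to 4 in the vacuolation contrast. The fits with 0 in MA/MyJ called 279 to 548 of all genes there, against 534 in the main fit. The 4 in the contrast came without the library in doubt, beside 3390 genes against 2194. The sign of small differences turned in some fits that left out 1 array: Sgsh in SM/J ran from -0.0443 to 0.11 and Arsb in WSB/EiJ from -0.31 to 0.25. Among vehicle differences the ranges were -0.0407 to 0.0929 for Arsb in MA/MyJ minus NZW/LacJ, -0.10 to 0.46 for Arsb and -0.0213 to 0.0789 for Sgsh in MA/MyJ minus WSB/EiJ, -0.14 to 0.42 for Arsb and -0.0441 to 0.0561 for Sgsh in NZW/LacJ minus WSB/EiJ, and -0.39 to 0.17 for Arsb in SM/J minus WSB/EiJ.

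Members called in the vacuolation contrast were 4 without the library labelled WSB/EiJ treated animal 3, beside 3390 genes, against 2 beside 2194 with it. With no filter 1 was called in MA/MyJ, beside 505 of 18146 genes, against 2 beside 534 of 12889. The mean of all probe sets, dim ones included, called 599 genes in MA/MyJ, 2289 in the strain-by-treatment F test and 1822 in the vacuolation contrast. Among them were 1 member in MA/MyJ and 0 in that F test and in the vacuolation contrast, against 2 in each. The calls of Galns and Ids between strains were thus lost, as were those of Ids in NZW/LacJ (0.03, adjusted p = 0.78), on average (-0.079, 0.0633) and among vehicle levels, and that of Galns in vehicle SM/J minus WSB/EiJ. It also turned the sign of Sgsh in NZW/LacJ (-0.0012) and WSB/EiJ (0.0308), of Arsb in WSB/EiJ (0.11) and in the vacuolation contrast (-0.0339), and of vehicle differences of Arsb (-0.28) and Sgsh (-0.10) in MA/MyJ minus NZW/LacJ and of Arsb (0.0162), Ids (0.0091) and Sgsh (0.0179) in SM/J minus WSB/EiJ. Array weights gave 5 members in MA/MyJ, 5 in SM/J, 4 in the F test and 5 in the vacuolation contrast. Over all genes, 2606, 2765, 5859 and 4435 were called there with these weights, against 534, 334, 2498 and 2194 in the main fit. The weights put Sgsh at -0.0246 in vehicle MA/MyJ minus WSB/EiJ and at -0.0314 in NZW/LacJ minus WSB/EiJ. Centring arrays on their medians put that last difference at -0.0359 and lost the calls of Arsa, Sumf1 and Sumf2 in the same pair, leaving 2 of 5. Over all genes 4936 were called in that pair, against 4948. Fitting only the groups of a comparison gave 1 in SM/J and 0 in WSB/EiJ, where 4 of all genes were called. Each such fit holds fewer arrays, and that of WSB/EiJ keeps the library in doubt among its 3 treated animals. In SM/J, MA/MyJ and NZW/LacJ these fits called 484, 1064 and 4086 genes, against 334, 534 and 2766 in the main fit. The mean over the 3 strains other than WSB/EiJ had 3 members called, beside 2971 genes, against 5 beside 2859. Ids was at 0.0157 there, and 6 members were called, beside 3678 genes, when the library in doubt was also left out. The cause of these changes was not tested.

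Animal numbers did not pair the samples: deviations of same-numbered animals correlated between -0.522 and 0.412 over 15 pairs, 4 of them over 0.1. With the replicate block 1 member (Arsa) was called in MA/MyJ, beside 494 of all genes, and Arsb in WSB/EiJ was 0.0239. The size of the groups and values of Galns near the dim end of the array limit what could be called.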

Other observations

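Genes that make the sulfated substrates of these enzymes were a further list of 26, of which 22 were tested. On average 4 rose and 0 fell, with a median effect of 0.03, beside 13.3% of all tested genes that rose and 8.92% that fell. Without the library labelled WSB/EiJ treated animal 3, 4 rose and 1 fell, beside 18.4% and 14.2%. Gal3st1, which adds the sulfate of sulfatide, the substrate of arylsulfatase A, rose by 0.48 ± 0.09 (adjusted p = 0.000224), and passed in MA/MyJ at 0.86 ± 0.17 and in NZW/LacJ at 0.53 ± 0.17. Its values in SM/J and WSB/EiJ, 0.40 ± 0.17 and 0.14 ± 0.18, did not pass. Ext1, a polymerase of heparan sulfate chains, rose by 0.21 ± 0.04 (0.000373), with -0.14 ± 0.09 in WSB/EiJ, 0.17 ± 0.08 in SM/J, 0.32 ± 0.08 in NZW/LacJ and 0.51 ± 0.08 in MA/MyJ, effects that differed between strains (F = 10.9, adjusted p = 0.00164). Hs6st1, a heparan sulfate sulfotransferase, rose by 0.34 ± 0.08 (0.00411). Papss2, which makes the sulfate donor, rose by 0.23 ± 0.08 (0.0478), a call lost (0.17, adjusted p = 0.0867) when the library labelled WSB/EiJ treated animal 3 was left out.

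Among the other sulfatases, Arsg and Arsk also differed between strains in their response. Arsg had effects of -0.91 ± 0.31 in WSB/EiJ, 0.21 ± 0.29 in SM/J, 1.11 ± 0.29 in NZW/LacJ and 0.70 ± 0.29 in MA/MyJ (F = 8.38, adjusted p = 0.00579). Leaving out that library gave a WSB/EiJ effect of -0.59 (adjusted p = 0.183). Arsk rose by 0.77 ± 0.17 in NZW/LacJ (adjusted p = 0.00156), and its effects in the other 3 strains did not pass (F = 6.15, adjusted p = 0.0198).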
